A study of Mus musculus with 24 samples.

Results

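Ptgds, Sult1a1, Fmo2, Phyhd1, Cys1, Vwa3a and Tnfrsf25 are 7 of the 54532 genes counted in each of 24 RNA-Seq samples from Trex1-KO mice. They were selected on the heart of the same samples, as genes that were clearly higher after the STING antagonist SN-011 than in control mice. The heart values below therefore describe the genes and test nothing about them, while the stomach, muscle and tongue were not used to choose them. Each gene was found by its Ensembl identifier in every sample. The study asked how the transcriptome of several tissues responds when STING is blocked in this lupus-like model.

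All mice lacked Trex1, a DNA exonuclease whose loss leaves DNA in the cytosol and drives the cGAS-STING pathway, and all were on a C57BL/6J background. There was no wild-type tissue among these samples, so no value here says whether a gene moved toward or away from its normal level. Groups were control and SN-011 in heart, stomach, muscle and tongue, so 8 groups of 3 samples each. Trex1 itself was listed at 0 counts in all 24 samples. The labels give a dose of 5 mg/kg of SN-011, given 3 times a week during 4 weeks, and the control mice are labelled untreated. The methods of the paper describe mice of about a month of age and daily intraperitoneal injection of a higher dose over a shorter time, with a Tween 80 vehicle in PBS for the control mice. The labels do not say which samples came from the same mouse, and p-values measure the spread between these samples.

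The genes do unlike work. Ptgds encodes the lipocalin-type synthase of prostaglandin D2, a lipid mediator that acts on the receptors Ptgdr and Ptgdr2. Sult1a1 is a phenol sulfotransferase, which moves sulfate from the donor PAPS onto phenols and other small molecules, and Fmo2 is a flavin monooxygenase that oxidizes nitrogen and sulfur in xenobiotics. Phyhd1 belongs to the family of phytanoyl-CoA dioxygenases. Cys1 encodes cystin, a protein of the primary cilium whose loss causes cystic kidneys in mice. Vwa3a encodes a protein with von Willebrand factor A domains, and Tnfrsf25 is death receptor 3, the receptor of the TNF family ligand Tnfsf15, best known on T cells.

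To show what lies upstream of genes that were higher together, the 250 bases before the annotated start are printed for 4 of the 5 genes that later passed the test over the tissues not used to choose them. The promoter of Vwa3a, the other of the 5, is only named. Sequences are from RefSeq on GRCm38.p6, run 5′ to 3′ toward the start, and carry in capitals any match to the motifs listed next.
Sult1a1, chr7:126676419-126676668, minus strand: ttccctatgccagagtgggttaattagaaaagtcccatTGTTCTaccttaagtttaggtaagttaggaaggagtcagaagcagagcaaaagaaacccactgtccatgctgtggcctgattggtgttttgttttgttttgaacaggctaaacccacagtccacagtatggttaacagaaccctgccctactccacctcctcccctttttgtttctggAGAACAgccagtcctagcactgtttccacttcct
Tnfrsf25, chr4:152115684-152115933, plus strand: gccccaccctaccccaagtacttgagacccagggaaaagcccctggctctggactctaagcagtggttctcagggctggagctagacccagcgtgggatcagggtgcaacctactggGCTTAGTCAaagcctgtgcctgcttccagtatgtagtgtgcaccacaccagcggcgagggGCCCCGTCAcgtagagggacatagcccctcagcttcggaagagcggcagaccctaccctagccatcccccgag
Fmo2, chr1:162898759-162899008, minus strand: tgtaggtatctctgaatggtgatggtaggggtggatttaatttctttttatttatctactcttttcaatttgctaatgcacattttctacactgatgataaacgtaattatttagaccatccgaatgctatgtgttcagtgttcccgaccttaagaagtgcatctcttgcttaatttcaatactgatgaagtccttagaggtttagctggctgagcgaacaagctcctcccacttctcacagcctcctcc
Phyhd1, chr2:30265953-30266202, plus strand: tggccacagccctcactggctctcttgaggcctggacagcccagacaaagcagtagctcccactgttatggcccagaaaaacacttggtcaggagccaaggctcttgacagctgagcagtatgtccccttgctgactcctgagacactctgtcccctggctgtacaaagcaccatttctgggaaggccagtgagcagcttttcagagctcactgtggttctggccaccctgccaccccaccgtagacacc
The motifs searched on both strands were the full glucocorticoid response element (a palindrome of the half-site that follows), the half-site AGAACA, the FoxO site GTAAACA, the E-box CACGTG, the D-box TTATGTAA, the interferon-stimulated response element and the antioxidant response element TGACNNNGC. The half-site is contained in the full element and can also overlap other motifs. In the Sult1a1 promoter the capitals mark 2 half-sites, with first bases at positions −212 and −34 from the start. In the first Tnfrsf25 promoter they mark 2 antioxidant response elements, at −133 and −73, and a half-site lies just past the start, outside the printed bases. No motif of this list was matched in the printed Fmo2 and Phyhd1 promoters, or in those of Cys1 and Vwa3a. Ptgds had a D-box at −141, and the second promoter of Fmo2 had a half-site at −125 and a FoxO site at −28. Of 32851 RefSeq promoters of 300 bases, 19.0% held the half-site, 12.4% the antioxidant response element, 7.15% the E-box, 3.65% the FoxO site, 3.44% the interferon-stimulated response element, 0.938% the D-box and 0.00913% the full glucocorticoid element. The matches are descriptions of letters and not of binding.

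Before the results, 3 facts on the samples matter for these genes. In every tissue, control replicate 1 had at least 3060 counts of Xist, an RNA of the inactive X chromosome of females, where each other sample had at most 20. No SN-011 sample reached that level, so this sign of sex was not balanced between the groups. The second SN-011 sample of the muscle had any count on just 11546 genes, where the other samples reached 19798 or more. RNA of stomach glands was present in other tissues of control replicates 2 and 3, at a summed abundance of 7 marker genes of 286 to 2859 CPM (heart), 292 to 704 CPM (muscle) and 2364 to 3017 CPM (tongue). In all other samples of these 3 tissues the sum was 6.38 to 42.7 CPM, where CPM is edgeR's abundance relative to the TMM-scaled library size. The tissues otherwise carried their own markers. Cardiomyocyte markers summed to 28714 to 48013 CPM in the heart and at most 3568 elsewhere, skeletal muscle markers to at least 117774 CPM in muscle samples and 15432 CPM in tongue samples, and stomach gland markers to at least 20450 CPM in the stomach. Total counts were 14253416 to 18443329 per sample, so that 3 counts, the least taken as shown, were 0.163 to 0.210 CPM.

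In the heart, the 7 genes were 2.77 to 4.72 times as abundant in SN-011 samples as in control samples, and no SN-011 sample overlapped a control sample for any of them. Ptgds was at 109, 134 and 128 CPM in control samples and 438, 620 and 689 in SN-011 samples. Its log2 fold change was 2.24 (standard error 0.19), the largest of the 7. Among the drug- and lipid-modifying enzymes, Sult1a1 was at 50.8, 40.7 and 41.1 CPM in control samples and 108, 125 and 134 after SN-011, a log2 fold change of 1.47 (standard error 0.13). Fmo2 was at 65.8, 48.3 and 56.9 CPM and then at 202, 185 and 147, a log2 fold change of 1.64 (standard error 0.16). Phyhd1 was at 10.8, 9.53 and 8.13 CPM and then at 27.3, 33.1 and 39.0, a log2 fold change of 1.80 (standard error 0.18). Per length of exon, these 4 enzymes were also the more abundant transcripts of the group, with means of 74.8, 29.3, 10.2 and 3.57 RPKM in control hearts against 1.10 to 1.97 RPKM for the other 3 genes.

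The cilium gene Cys1 was at 6.26, 5.39 and 5.83 CPM in the control hearts and 16.1, 22.6 and 23.2 CPM in the SN-011 hearts, a log2 fold change of 1.82 (standard error 0.19). Vwa3a was at 8.33, 8.15 and 7.33 CPM and then at 22.9, 17.9 and 25.6, a log2 fold change of 1.48 (standard error 0.17). The receptor gene Tnfrsf25 was at 3.54, 4.70 and 4.44 CPM and then at 11.8, 14.9 and 16.3, a log2 fold change of 1.76 (standard error 0.21). The control hearts lay close together for each gene. By p-value in edgeR the 7 genes are among the 11 strongest rises of the heart, with Bnip3, Nfil3, Sesn1 and Klf15 as the others. The last inside, Tnfrsf25, had an adjusted p of 0.0182, and the next outside, Prodh, 0.0212. All 7 are called at an adjusted p under 0.05, where 0.52% of the 16151 genes tested were called higher (84 genes, beside 53 lower, or 65 and 184 when scaled by library size alone), and all 7 had every SN-011 sample above every control sample, which held for 14.1% of genes. Since this contrast chose the genes, nothing is read from these counts. Of the 7, 0 were called without SN-011 replicate 2, 4 without SN-011 replicate 1 or 3, and 0 in a joint fit of all tissues and samples. Few or no genes at all were called higher in these fits: 0 of 16720 without SN-011 replicate 2, 4 of 16765 without replicate 1, 6 of 16751 without replicate 3 and 0 of 19731 in the joint fit. The sizes moved little, with log2 fold changes of 1.46 (Sult1a1) to 2.20 (Ptgds) without SN-011 replicate 2, and all 7 stayed at an unadjusted p under 0.05 in each of these fits.

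**Figure D1:**
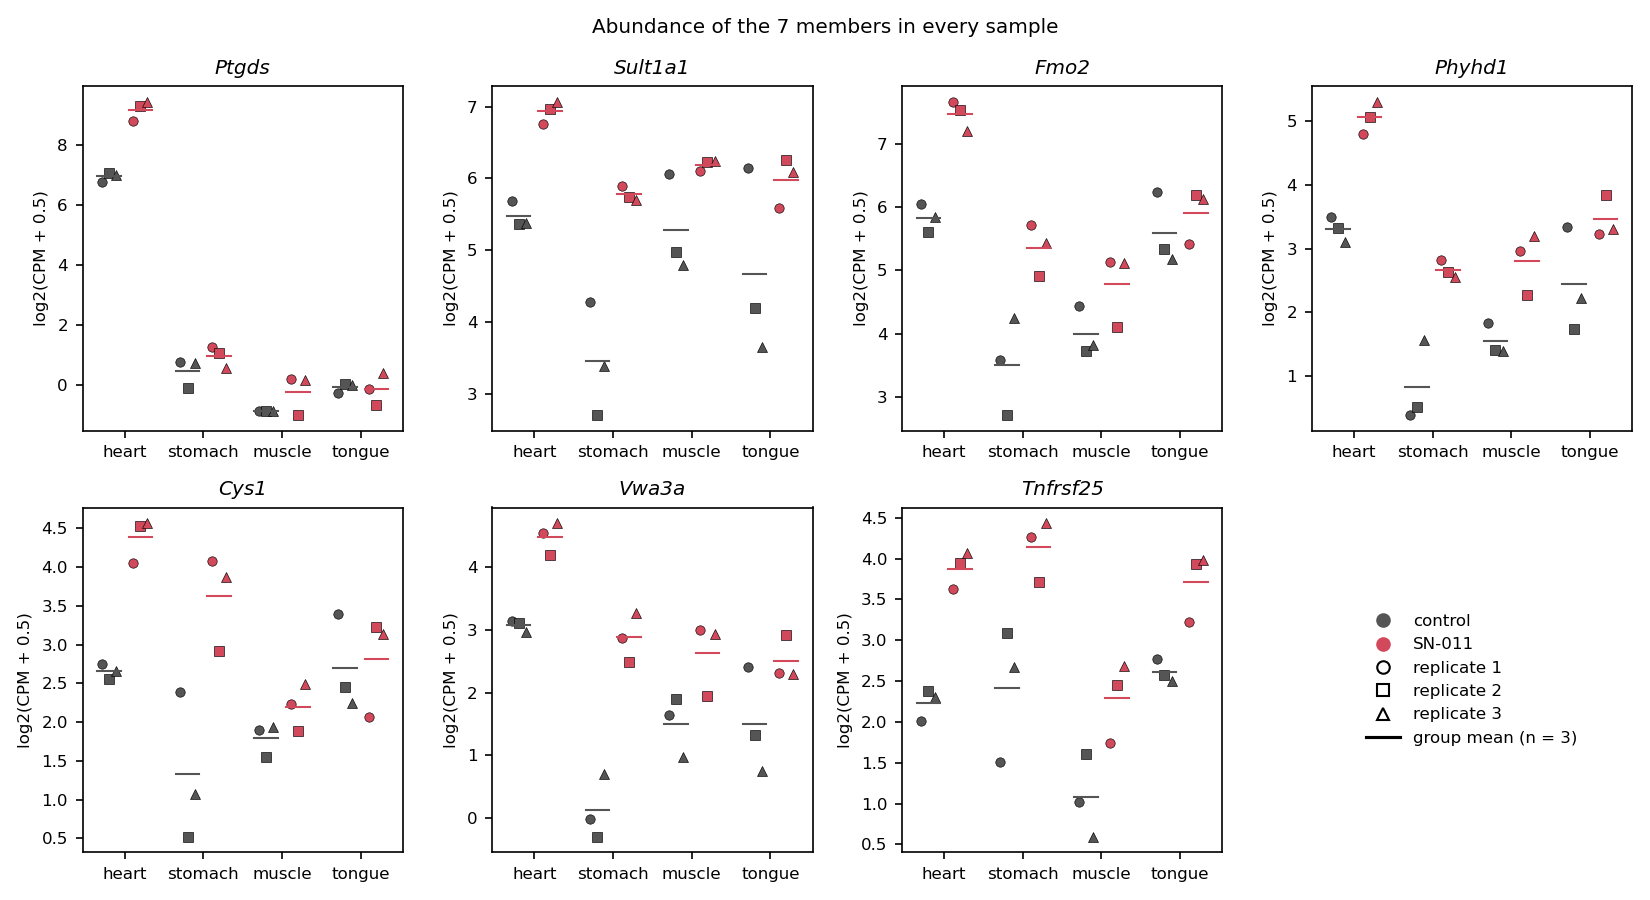
Abundance of each gene in all 24 samples as log2(CPM + 0.5), by tissue, with control samples in grey and SN-011 samples in red, a marker shape for each replicate number and a line at the mean of each group of 3. The groups are apart for all 7 genes in the heart, for 6 genes in stomach and for 4 in muscle, and for Tnfrsf25 alone in the tongue.

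Some marker genes moved beside these heart values. Heart SN-011 replicate 1, the sample with the highest Fmo2, held 45.1 CPM of 6 lung markers in sum, against 2.40 to 8.16 CPM in the other 5 heart samples, and lung is a tissue rich in Fmo2. Without that sample the log2 fold change of Fmo2 was 1.55. Fibroblast markers were lower in SN-011 hearts, at 1421 to 1588 CPM for the sum of 6 genes against 2066 to 2890, with 1 of the 6 called lower. Schwann cell markers were also lower without overlap, at 28.0 to 34.5 CPM for the sum of 6 genes against 36.2 to 49.0, and mesothelium markers were at 50.01 to 85.95 CPM against 83.5 to 199.8 CPM. The mesothelium sum was 83.5, 199.8 and 156.3 CPM in control replicates 1 to 3, of which replicates 2 and 3 also held RNA of stomach glands. In control stomachs it was 2987 to 8485 CPM. The sum of 4 ventricular markers was higher, at 9495 to 10541 CPM against 6124 to 8594. Of these 4 genes 3 had a positive log2 fold change and none was called. At an unadjusted p under 0.05, 1 of them was higher and 1 lower. The sum of 6 cardiomyocyte markers was 39774 to 48013 CPM against 28714 to 40619, with all 6 at a positive log2 fold change and none called. Their part in the change of the 7 genes was not tested, and in tissue samples fewer cells of a type and less RNA per cell cannot be told apart. Tnfrsf25 is also a T cell gene, and the sum of 8 T cell markers was 137 to 280 CPM in control hearts and 115 to 182 in SN-011 hearts, and none of the 8 had a positive log2 fold change. The part of T cells in the values of Tnfrsf25 was not tested.

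In the stomach, which the choice of genes did not use, all 7 genes had a positive log2 fold change, with a median of 2.04 against 0.00 over all 17031 genes tested. Sult1a1 was at 18.8, 5.99 and 9.90 CPM in control samples and 58.8, 53.0 and 51.4 in SN-011 samples, a log2 fold change of 2.24 (standard error 0.40). Vwa3a, at 0.484, 0.312 and 1.12 CPM and then at 6.83, 5.14 and 9.21, had the largest log2 fold change of any of the 7 in any tissue, 3.43 (standard error 0.60), or 10.7-fold. Its control values rest on 6, 5 and 21 counts. Vwa3a passed the filter on low counts through its SN-011 samples, at 116, 78 and 150 counts. It had no value in the fit that required at least 10 counts in every sample. Its size here is therefore tied to the group where it was high, and nothing is read from its rank. For Sult1a1 the lowest SN-011 sample lay far above the highest control sample, and for Vwa3a the groups did not overlap.

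Fmo2 was at 11.5, 6.05 and 18.4 CPM in control stomachs and 52.1, 29.7 and 42.5 CPM in SN-011 stomachs, a log2 fold change of 1.79 (standard error 0.41). Phyhd1 was at 0.807, 0.935 and 2.46 CPM and then at 6.54, 5.67 and 5.34, a log2 fold change of 2.04 (standard error 0.55). Cys1 was at 4.76, 0.935 and 1.60 CPM and then at 16.4, 7.06 and 14.2, a log2 fold change of 2.38 (standard error 0.64). The groups were apart for these genes too, although control values differed several-fold among themselves. Tnfrsf25 was at 2.34, 7.98 and 5.88 CPM and then at 18.8, 12.7 and 21.1, a log2 fold change of 1.69 (standard error 0.46), again without overlap. Ptgds was scarce in the stomach, at 1.21, 0.437 and 1.18 CPM in control samples and 1.89, 1.58 and 0.983 in SN-011 samples, and its groups overlapped (log2 fold change 0.66, standard error 0.66).

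No gene of the 7 passed an adjusted p of 0.05 in the stomach by edgeR's quasi-likelihood test, where 0% of all genes were called higher. The adjusted p was 0.0621 for Sult1a1 and Vwa3a, 0.0758 for Fmo2, 0.0920 for Phyhd1, 0.0923 for Cys1, 0.0963 for Tnfrsf25 and 0.569 for Ptgds. In the higher direction 6 of 7 passed an unadjusted p of 0.05, as did 13.2% of all genes, and the same number had all SN-011 samples above all control samples, as did 17.8%. The 6 include Vwa3a, which passed the filter on low counts through its SN-011 samples. By edgeR's exact test, by DESeq2, without a filter on low counts and in a joint fit of all tissues, 6 of 7 were called at an adjusted p under 0.05, and with the replicate number as a block 3 were. Of all genes, 6.66% were called higher by the exact test, 7.5% by DESeq2, 3.15% without the filter, 6.7% in the joint fit and 0.934% with the block.

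Sums of cell type markers also differed among the stomach samples. The sum of 5 smooth muscle markers was 6590, 1246 and 2200 CPM in control replicates 1 to 3 and 9635, 4941 and 5748 CPM in SN-011 replicates 1 to 3, and the groups overlapped. That of 6 squamous epithelium markers was 241, 207 and 115 CPM and then 1494, 451 and 900 CPM, without overlap. None of these 11 genes was called, with 1 smooth muscle gene and 5 squamous genes at an unadjusted p under 0.05. The sum of 6 Schwann cell markers was lower in SN-011 stomachs without overlap, at 127 to 528 CPM against 594 to 910. The genes of this list were not lower as a set, since 3 of the 6 had a positive log2 fold change. At an unadjusted p under 0.05, 1 of them was higher and 0 were lower. The part of these cell types in the stomach values was not tested.

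**Figure D2:**
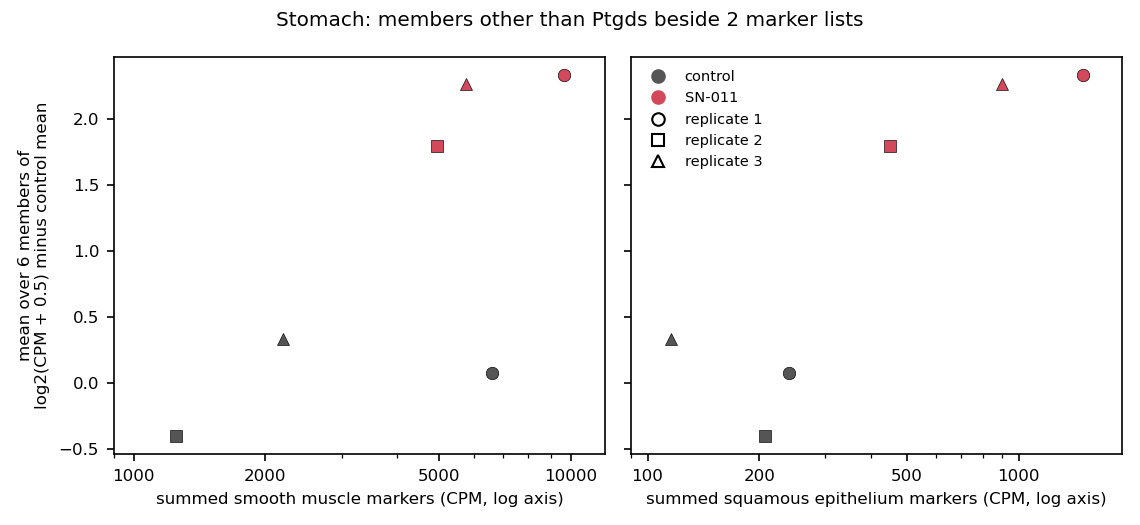
Mean of the 6 genes other than Ptgds in each stomach sample, as log2(CPM + 0.5) minus the control mean of each gene, against the summed CPM of smooth muscle markers (left) and squamous epithelium markers (right) on log axes. Control samples lie between −0.40 and 0.33 and SN-011 samples between 1.79 and 2.33. The groups overlap on the smooth muscle axis and are apart on the squamous axis.

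In the muscle, 6 genes were abundant enough to test, and all 6 had a positive log2 fold change, with a median of 1.07 against −0.08 over the 14198 genes tested. Phyhd1 was at 3.06, 2.15 and 2.12 CPM in control samples and 7.27, 4.32 and 8.62 in SN-011 samples, a log2 fold change of 1.46 (standard error 0.43). Tnfrsf25 was at 1.53, 2.55 and 1.01 CPM and then at 2.85, 4.98 and 5.95, a log2 fold change of 1.44 (standard error 0.57). Vwa3a was at 2.64, 3.23 and 1.46 CPM and then at 7.53, 3.34 and 7.14, a log2 fold change of 1.30 (standard error 0.52). These groups did not overlap, by a narrow margin for Tnfrsf25 and Vwa3a. Sult1a1 was at 66.5, 30.8 and 27.3 CPM and then at 68.1, 74.3 and 75.0, a log2 fold change of 0.80 (standard error 0.34). Here control replicate 1 came close to the SN-011 samples and the other control samples did not.

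Fmo2 was at 21.3, 12.7 and 13.6 CPM in control muscle and 34.7, 16.6 and 34.1 CPM in SN-011 muscle, a log2 fold change of 0.85 (standard error 0.35). SN-011 replicate 2 lay inside the control range. Cys1 was at 3.22, 2.43 and 3.33 CPM and then at 4.22, 3.18 and 5.10, a log2 fold change of 0.48 (standard error 0.43), and its groups overlapped. Ptgds had 1 count in each control sample and 10, 0 and 11 counts in the SN-011 samples, too few to be tested. None of the 6 passed an adjusted p of 0.05 by edgeR's quasi-likelihood test, where 0.00704% of genes were called higher. None did by edgeR's exact test, where 287 of 14198 genes were called higher. DESeq2 called 468 genes higher but gave no adjusted p for Phyhd1, Cys1, Vwa3a and Tnfrsf25, which it therefore could not call. Sult1a1 and Fmo2 did not pass in DESeq2 (adjusted p = 0.189 and 0.201). In the higher direction 4 of 6 passed an unadjusted p of 0.05, against 8.96% of genes, and 4 of 6 had groups apart, against 14.7% of genes. Without SN-011 replicate 2, the sample with counts on fewer genes, 4 were called, as were 3.6% of all genes in the higher direction: Phyhd1 (log2 fold change 1.70, adjusted p = 0.0218), Vwa3a (1.59, 0.0405), Fmo2 (1.12, 0.0405) and Ptgds (3.42, 0.0318). Ptgds, left out of the main fit, passed the filter in this fit through its 10 and 11 counts in the remaining SN-011 samples. Its call is therefore tied to the group where it was high, and nothing is read from it. Without control replicate 1, Sult1a1 alone was called, at a log2 fold change of 1.31 (adjusted p = 0.0430 from the same edgeR test), where 0.398% of genes were called higher. The control samples kept in that fit held RNA of stomach glands (704 and 292 CPM), whose part was not tested. Marker sums of several cell types differed between the groups without overlap in the muscle. Skeletal muscle markers were at 146023 to 168186 CPM in SN-011 samples against 117774 to 131892 CPM in control samples, and macrophage markers at 436 to 512 against 354 to 422. Fibroblast markers were at 464 to 760 CPM against 1008 to 1419, and endothelial markers at 177 to 200 against 215 to 266. A positive log2 fold change was found for 5 of 6 skeletal muscle, 4 of 7 macrophage, 0 of 6 fibroblast and 1 of 6 endothelial genes. None of the genes in these 4 lists was called, and their part in the values of the 6 genes was not tested.

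In the tongue, the same 6 genes were tested and had positive log2 fold changes, with a median of 0.93 against −0.01 over the 16587 genes tested. Tnfrsf25 was the one gene without overlap, at 6.31, 5.44 and 5.18 CPM in control samples and 8.83, 14.8 and 15.3 in SN-011 samples, a log2 fold change of 1.20 and a standard error of 0.26 (edgeR adjusted p = 0.263). Sult1a1 was at 70.3, 17.9 and 12.1 CPM and then at 47.4, 75.6 and 67.6, a log2 fold change of 0.93 (standard error 0.62). Vwa3a was at 4.83, 2.01 and 1.19 CPM and then at 4.48, 7.05 and 4.42, a log2 fold change of 0.98 (standard error 0.53). For both, control replicate 1 lay among the SN-011 samples and control replicates 2 and 3 lay below all of them.

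Phyhd1 was at 9.66, 2.85 and 4.18 CPM in control tongues and 8.89, 13.8 and 9.40 CPM in SN-011 tongues, a log2 fold change of 0.94 (standard error 0.46), in the same order of samples. Fmo2 was at 74.8, 40.1 and 35.9 CPM and then at 42.3, 72.3 and 69.4, a log2 fold change of 0.29 (standard error 0.33). Cys1 was at 9.998, 4.98 and 4.25 CPM and then at 3.70, 8.86 and 8.28, a log2 fold change of 0.11 (standard error 0.45). The last gene had no stable direction, since its log2 fold change was −0.12 to −0.03 in 4 of the 6 fits that left out 1 sample. Ptgds had 6, 8 and 8 counts in control samples and 7, 2 and 13 in SN-011 samples, and was not tested.

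None of the 6 was called in the tongue by edgeR's quasi-likelihood test, where 0% of genes were called higher, and 1, Tnfrsf25, was by edgeR's exact test and by DESeq2, where 0.404% and 0.723% were. At an unadjusted p of 0.05, 1 of 6 passed, against 5.17% of genes, and 1 of 6 had groups apart, against 9.4% of genes. Control replicate 1 was the highest of the control tongues for all 6 genes tested, and without it 4 were called, as were 4.41% of all genes in the higher direction: Sult1a1 (log2 fold change 2.09, adjusted p = 0.00369), Phyhd1 (1.60, 0.0175), Vwa3a (1.73, 0.0331) and Tnfrsf25 (1.29, 0.0277). The 2 control tongues that were low for these genes also held the most squamous epithelium RNA, 41375 and 59330 CPM for the sum of 6 markers against 13453 to 25321 CPM in the other 4 samples. They also held RNA of stomach glands, at 3017 and 2364 CPM against 11.5 to 42.2 CPM in SN-011 tongues. The control tongue left out was the one with high Xist, at 13811 counts against at most 2 in SN-011 tongues. The part of these differences in the values of the genes was not tested. Across the 7 genes, control replicate 1 was the highest control sample for 5 (heart), 3 (stomach), 3 (muscle) and 6 (tongue), and for Sult1a1 in all 4 tissues.

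**Figure D3:**
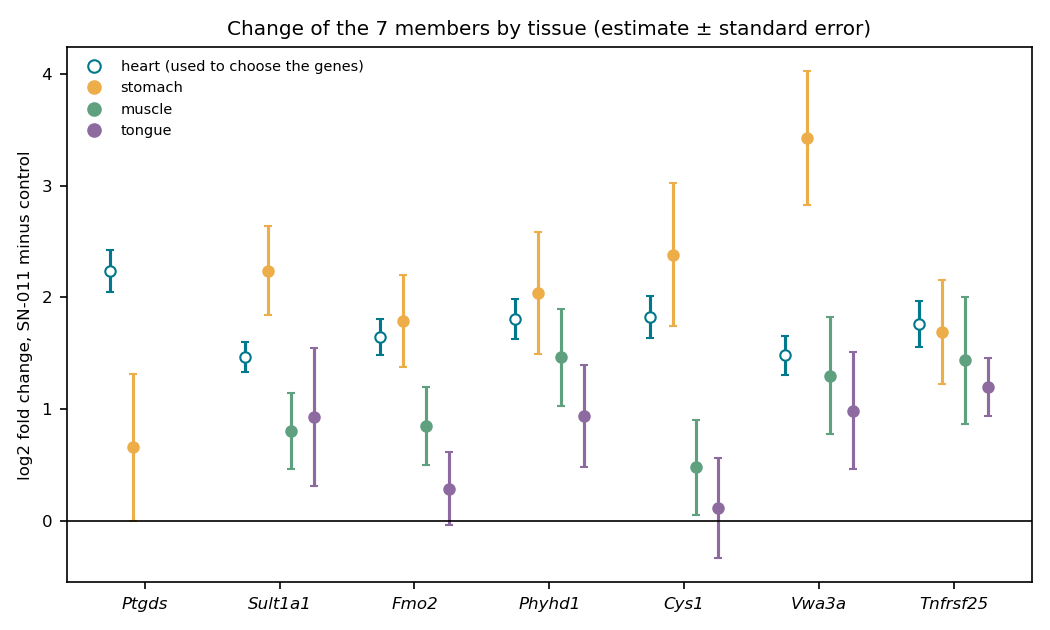
Log2 fold change of SN-011 against control for each gene and tissue, with bars of 1 standard error; open circles are the heart, on which the genes were chosen, and Ptgds has no estimate in muscle and tongue. Stomach estimates are above those of muscle and tongue for each gene with 3 estimates, and the smallest are 0.29 for Fmo2 and 0.11 for Cys1, both in the tongue.

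Over the 3 tissues not used to choose the genes, 5 of 7 passed the test of the mean change in a fit of 18 samples, where 1.95% of 19019 genes were called higher. Vwa3a rose by a mean log2 fold change of 1.85 (standard error 0.35, edgeR adjusted p = 0.00815, with the adjustment over all 19019 genes). Phyhd1 rose by 1.42 (standard error 0.30, adjusted p = 0.0119), Tnfrsf25 by 1.36 (0.27, 0.00990), Sult1a1 by 1.26 (0.30, 0.0221) and Fmo2 by 0.91 (0.24, 0.0327). Cys1, with a mean of 0.92 (0.32), and Ptgds, with 1.14 (0.54), did not pass (adjusted p = 0.0985 and 0.217). Within each called gene all 3 tissue estimates were positive.

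This fit takes the 18 samples as separate mice. As deviations from group means over 6734 genes, the mean correlation between tissues was 0.25 for control samples of the same number and −0.12 for control samples of other numbers. For SN-011 samples the values were 0.09 and −0.04. Samples of 1 number may thus share a mouse, the hearts included. Treating same-numbered samples of a treatment as a single animal, the same 5 genes passed, at adjusted p-values of 0.00879 to 0.0474 from limma, where 1.84% of genes were called higher. The correlation within a mouse that limma estimated for this fit, shared by all genes, was 0.0054. At that value the fit takes the samples as nearly separate mice, so it says little on how the calls would hold with shared mice. The calls depended on which samples were in the fit. Leaving out one number in all 3 tissues at once, none of the 7 was called without control replicate 2, SN-011 replicate 1 or SN-011 replicate 3, 2 were without control replicate 3, and 6 were without control replicate 1 or SN-011 replicate 2. Calls over all genes moved too. In the same order of fits, 2, 23, 13, 49, 759 and 667 genes were called higher, of 19469 to 19728 tested. The 6 called without SN-011 replicate 2 include Ptgds, whose muscle counts were then 1 in each control sample and 10 and 11 in the SN-011 samples. Nothing is read from its call. The mean log2 fold changes stayed positive in every one of these fits, from 0.71 for Cys1 to 2.06 for Vwa3a.

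Whether the change differed among stomach, muscle and tongue was tested in the same fit of 18 samples, and 0 of the 7 genes were called by edgeR's quasi-likelihood test, where 0.489% of all genes were. The lowest adjusted p-values were 0.232 for Vwa3a and 0.250 for Cys1, both at an unadjusted p under 0.05, and the highest 0.912 for Tnfrsf25. DESeq2 called 1, Vwa3a (adjusted p = 0.0476). The larger values in the stomach are therefore not shown to differ from those of muscle and tongue for 6 of the 7 genes, and for Vwa3a this depends on the tool.

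**Figure D4:**
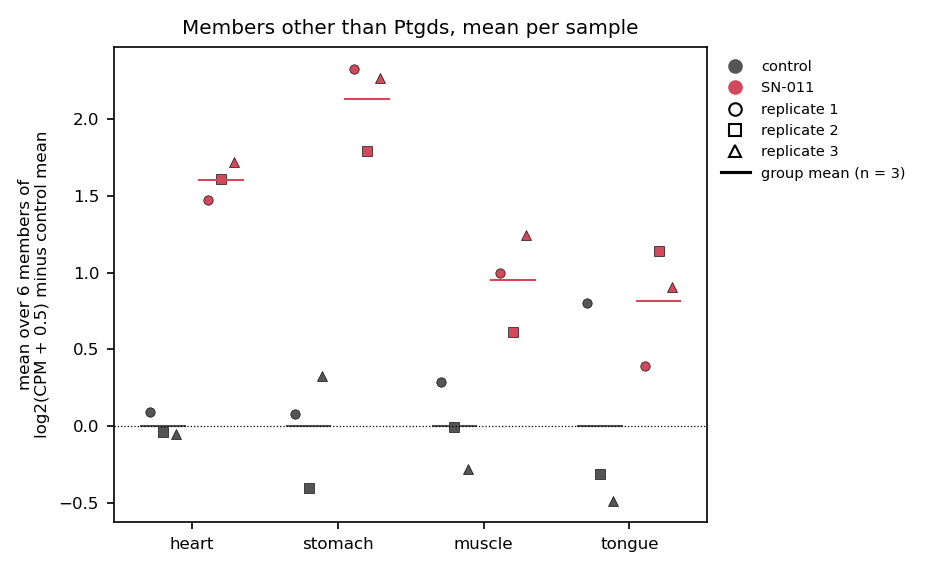
Mean over the 6 genes other than Ptgds of log2(CPM + 0.5) minus the control mean of each gene, for every sample, with the mean of each group of 3 as a line. The SN-011 ranges are 1.48 to 1.72 (heart), 1.79 to 2.33 (stomach), 0.61 to 1.24 (muscle) and 0.39 to 1.14 (tongue), and in the tongue control replicate 1 lies at 0.80, above SN-011 replicate 1.

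The 6 genes other than Ptgds were also compared with each other from sample to sample. Over the 18 samples of stomach, muscle and tongue, with the mean of each tissue removed, Pearson's r of log2(CPM + 0.5) was 0.52 to 0.93 over the 15 pairs, with a median of 0.83. Both treatments are in these samples, so the r holds the difference between them. With the mean of each group of 3 removed instead, the median was 0.53 and the range −0.16 to 0.79. Fmo2 and Phyhd1 kept an r of 0.79, Fmo2 and Vwa3a 0.78 and Phyhd1 and Vwa3a 0.76. Tnfrsf25 had the lowest values, with r of −0.12 with Sult1a1, 0.03 with Fmo2, −0.16 with Cys1, 0.23 with Phyhd1 and 0.27 with Vwa3a. The points share libraries and tissues, and may share mice, and these values are descriptions.

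The genes most like each of the 6 were sought among 15815 genes, by r over the same 18 samples with tissue means removed. This r also holds the difference between the treatments. Sult1a1 went with Cd300lg, an endothelial receptor gene (r = 0.98), with the lipid droplet gene Plin4 (0.96) and with Galnt15 (0.96). Phyhd1 and Vwa3a both went with Cyp27a1, the sterol hydroxylase of bile acid synthesis (0.94 for each), and with each other (0.93). Phyhd1 also went with Ercc5 (0.92) and Vwa3a with Slc25a27 (0.93). Fmo2 went with Myo18b (0.94), Cyp2d22 (0.94) and Fgfr1 (0.94), and Cys1 with Mxra8 (0.95), Cbr2 (0.95) and Barx1 (0.94). Tnfrsf25 went with Dgka, a diacylglycerol kinase of T cells and other tissues (0.89), Ftsj3 (0.88) and Prickle3 (0.87). Ptgds was below 1 CPM on average in these tissues and was not compared.

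Per length, the control samples set the genes in different orders. Levels are RPKM, CPM per kilobase of exon, scaled within each tissue, and the order was the same with library size alone. Ptgds was a heart transcript here, at a mean of 74.8 RPKM (SD 7.87, n = 3) in the heart against means of 0.571, 0.275 and 0.0323 in stomach, tongue and muscle. Only stomach and tongue overlapped in this order. Sult1a1 was at 29.3 in the heart, 27.6 in the muscle, 22.2 in the tongue and 7.67 in the stomach, with every neighbouring pair overlapping. Fmo2 was at 10.2 in the heart and 8.96 in the tongue, which overlapped, and below both at 2.83 in the muscle and 2.13 in the stomach.

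Phyhd1 was at 3.57 RPKM in the heart, 2.09 in the tongue, 0.920 in the muscle and 0.527 in the stomach, with overlap between neighbours. Vwa3a was at 1.10 in the heart, apart from 0.371 in the tongue and 0.339 in the muscle, and at 0.0888 in the stomach, apart from the muscle. Cys1 and Tnfrsf25 were highest in the tongue, at 2.17 and 2.48, where Cys1 overlapped the heart (1.97) and Tnfrsf25 the stomach (2.37). Their lowest levels were 0.824 in the stomach for Cys1 and 0.745 in the muscle for Tnfrsf25. The stomach, where the fold changes were largest, was thus the tissue of lowest control level for Sult1a1, Fmo2, Phyhd1, Cys1 and Vwa3a. After SN-011 the stomach levels were 36.1, 7.38, 2.20, 4.25 and 0.980 RPKM for these 5 genes, against 29.3, 10.2, 3.57, 1.97 and 1.10 in control hearts.

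Other genes of the pathways of the 7 were taken from 7 lists of 92 genes in all. In the heart 68 were tested, of which 1 was called higher and 1 lower, where 0.328% of all genes were called lower, and at an unadjusted p under 0.05 6 were higher and 14 lower, against 10.8% and 11.6% of all genes. In the stomach 10 of 78 were higher and 12 lower at that p, with 11.4% of all genes lower. In the muscle 6 of 63 were higher and 1 lower, with 5.8% of all genes lower, and in the tongue 2 of 75 were higher and 6 lower, with 7.33% lower. None was called in these 3 tissues. Of 21 genes of prostanoid synthesis and signalling, 18 were tested in the heart and none was called in any tissue, with 5 lower and 0 higher at an unadjusted p under 0.05 in the heart. Pla2g4a, the phospholipase that frees arachidonic acid, was at 15.2 CPM in control hearts and 9.26 after SN-011 (log2 fold change −0.72, edgeR adjusted p = 0.0588), and Slco2a1, the prostaglandin transporter, at 24.7 and 16.1 (−0.62, 0.0838). Of 15 sulfotransferases and genes of their donor, 6 were tested in the heart and none was called in any tissue. The lowest p-values in the heart belonged to Papss2, which makes PAPS, at 18.2 and 25.7 CPM (log2 fold change 0.50, adjusted p = 0.116), and Sult5a1, at 2.89 and 5.83 CPM (1.01, 0.150). Sult5a1 was at log2 fold changes of 2.81, 1.33 and 1.00 in stomach, muscle and tongue (edgeR adjusted p = 0.146, 0.272 and 0.524). Papss2 was at −1.36, 0.56 and −1.06 in that order (0.216, 0.360 and 0.263), and Pla2g4a at −1.44 in the stomach (0.0674).

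Of 6 flavin monooxygenases other than Fmo2, 3 were tested in the heart and 1 was called, Fmo1, a neighbour of Fmo2 in function. It rose from 48.6 to 82.0 CPM, a log2 fold change of 0.75 (standard error 0.13, edgeR adjusted p = 0.0383). In the stomach Fmo1 was at a log2 fold change of 1.70 (edgeR adjusted p = 0.149). In the heart Fmo5 was at 14.4 and 23.0 CPM (0.68, adjusted p = 0.153). Of 10 genes of phytanoyl-CoA oxidation and their relatives, 8 were tested in the heart and Phyhip, a partner of the phytanoyl-CoA hydroxylase Phyh, fell from 19.1 to 8.86 CPM (log2 fold change −1.11, standard error 0.16, adjusted p = 0.0281). Phyh itself was at 241 and 302 CPM (0.33, adjusted p = 0.336). Neither list had a gene called in stomach, muscle or tongue.

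Of 18 cystic kidney and cilium genes, 16 were tested in the heart and none was called in any tissue, with Bicc1, an RNA-binding protein gene, at 31.4 and 17.7 CPM (log2 fold change −0.83, adjusted p = 0.0543) and Arl3, a small GTPase gene of the cilium, at 25.2 and 34.0 (0.43, 0.102). In the stomach Arl3 was at 1.19 (edgeR adjusted p = 0.0885). The 6 markers of motile cilia summed to at most 9.1 CPM in any heart sample, with 3 of them tested, none called. Of 14 genes of death receptor signalling, 13 were found and 12 tested in the heart, and none was called in any tissue. Fas, another death receptor, was at 21.3 and 32.8 CPM in the heart (0.62, adjusted p = 0.0931) and Fadd, the adaptor of these receptors, at 23.7 and 18.04 (−0.39, 0.143). Fadd was at −1.31 in the stomach (edgeR adjusted p = 0.0885). Of 8 relatives of Vwa3a with von Willebrand factor A domains, 5 were tested in the heart and none was called in any tissue, with Vwa5a at 86.4 and 68.7 CPM (−0.33, 0.123) and Vwa1 at 18.2 and 13.0 (−0.48, 0.168).

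Counts of some of these genes could hold reads of a neighbour. On GRCm38, Ptgds lies on chr2:25466709-25470046, Sult1a1 on chr7:126672865-126676432, Fmo2 on chr1:162874317-162898726 and Cys1 on chr12:24665833-24681813, all on the minus strand. Phyhd1 lies on chr2:30266203-30282149, Vwa3a on chr7:120739318-120805742 and Tnfrsf25 on chr4:152115934-152120119, on the plus strand. Phyhd1 shares 1249 of its 2657 exon bases with Gm28035 and 94 with Gm28038 on the same strand, and read pairs there can be lost to both, so that its level per length is a lower value. Sult1a1 shares 61 exon bases with Sgf29 and Vwa3a 626 with Gm44661, both on the other strand. The counts of Gm28035 and Gm44661 were at most 4 in any sample, those of Gm28038 were 0, and those of Sgf29 reached 457.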

How the data were processed

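RNA-Seq was processed for 24 samples of Trex1-KO mice (4 tissues, control or SN-011, 3 samples per group). The authors deposited raw counts of read pairs per gene, without normalization, for 54532 genes, of which 54495 are in GENCODE M21 (GRCm38), used for symbols, positions and exon lengths. The paper names featureCounts after HISAT2, whereas the submitters' processing notes name HISAT2, HTSeq and mm10. The paper gives strand-specific libraries of polyA+ RNA, and whether counting used the strand is not given in the sources used here. The sequencer named differs between labels and paper.

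Separate models per tissue were made with edgeR 4.0.16 under R 4.3.3. Low genes were removed by filterByExpr, whose minimum count was 10 and minimum total 15, and samples were scaled by TMM. Fold changes carry a prior count of 0.125. Quasi-likelihood p-values were adjusted by Benjamini-Hochberg across every gene in the model, and 0.05 was the threshold. The mean change over stomach, muscle and tongue and its difference among them came from 1 fit of 18 samples. Abundances are CPM, or RPKM with exon length. The fits were tested on simulated data with known changes. Samples were drawn independently there, so shared mice were not simulated. The 7 genes, the gene lists, the markers and the motifs were chosen with earlier results of these data known. Beside the 7 genes, the genes named are the 3 genes most like each in the other tissues, and of each pathway list those called in any tissue and the 2 with the lowest p in the heart. Bnip3, Nfil3, Sesn1, Klf15 and Prodh, and the genes used to check samples, were named after their values were seen.

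Other settings tried were scaling by size factors of DESeq2 or by library size, dropping the filter, requiring at least 10 counts in every sample, edgeR's exact test, DESeq2 1.42.0, a joint fit of all tissues, the replicate number as a block, samples of 1 number as 1 mouse (limma 3.58.1) and each sample left out in turn. Batches and sequencing runs are not given in the sources used here. Floors of 3 counts cover counting error only.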

Additional observations from a re-analysis of the deposited data

How the results depend on the processing

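Over all alternatives, the log2 fold changes of the tested genes kept their sign in every tissue except for Cys1 in the tongue, which was 0.11 and turned negative in 4 fits without 1 sample (−0.0415 without control replicate 2, −0.115 without control replicate 3, −0.103 without SN-011 replicate 2 and −0.0318 without SN-011 replicate 3) and ranged from −0.115 to 0.590 over the 6. In the heart 7 genes were called, but 0 in a joint fit of all tissues and 0 to 7 with 1 sample left out (0 without SN-011 replicate 2, 4 without SN-011 replicate 1 or 3). In the stomach 0 were called, but 6 without a filter on low counts, 6 by edgeR's exact test, 6 by DESeq2, 6 in the joint fit, 1 with at least 10 counts in every sample and 0 to 1 with 1 sample left out. In the muscle 0 were called and 0 to 4 with 1 sample left out, where the 4 include Ptgds, which passed the filter in that fit through its SN-011 counts. By DESeq2 only Sult1a1 and Fmo2 had an adjusted p in the muscle. In the tongue 0 were called, but 1 by edgeR's exact test, 1 by DESeq2 and 0 to 4 with 1 sample left out. For the mean change over stomach, muscle and tongue 5 were called and 0 to 6 without 1 number, and for its difference 0, but 1 by DESeq2. Over all genes, the heart had 84 higher and 53 lower, but 700 and 1188 without a filter, 463 and 455 by the exact test, 702 and 652 by DESeq2, and 0 and 1 in the joint fit; the stomach had 0, but 1277 higher and 1112 lower by DESeq2. The cause of these moves was not tested.

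With the replicate number as a block, 3 genes were called in the stomach (Sult1a1, Fmo2 and Vwa3a) and the number of calls in the other comparisons did not change. The replicate block rests on the number in the labels alone, which do not say that it pairs samples. As deviations from group means, control and SN-011 samples of the same number correlated at means of −0.06 (heart), 0.07 (stomach), 0.04 (muscle) and −0.31 (tongue). The planned older quasi-likelihood fit of edgeR is the default of the installed version and thus the fit used, so the newer fit was added after seeing the data. The newer fit called 2 of the genes in the stomach, where 154 of 17031 genes were called higher. The fit of 3 tissues without muscle SN-011 replicate 2 was also added after seeing the data, and called 7, where 878 of 19932 genes were called higher. The 7 include Ptgds, whose muscle counts were then 1 in each control sample and 10 and 11 in the SN-011 samples. Nothing is read from its call. Depth limited Ptgds most, which had at most 13 counts in any muscle or tongue sample and was not tested there except in some of the alternatives. In fits that leave a group with 2 samples, the spread is pooled over the tissue.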
